A study of Mus musculus with 10 samples.

Results

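The 9 genes described here encode the transcription factor NF-κB and the kinases that switch it on. They are the 5 subunit genes Rela, Relb, Rel, Nfkb1 and Nfkb2, the 3 genes of the IκB kinase (IKK) complex, Chuk (IKKα), Ikbkb (IKKβ) and Ikbkg (NEMO), and Map3k14, which encodes the NF-κB-inducing kinase NIK. They were taken by name from the 23337 gene rows of each library, and all 9 passed the low-count filter that left 12313 genes for testing. In the limma test planned for the 4 groups, none of the 9 passed after interferon-β (IFN-β) in either labelled genotype, and none passed between the labelled genotypes in either treatment. With the replicate number accounted for, Map3k14 fell in KO-labelled cells in both treatments and Relb in untreated cells. These are 2 of 9 members untreated and 1 of 9 with IFN-β, no more than the 26.6% and 26.0% of all tested genes that passed in the same fits. Of 10 fits that left out 1 library, the Relb call was lost in 7 and the Map3k14 call in 2 untreated and in 4 with IFN-β. Without that adjustment DESeq2 called Relb in untreated cells, 1 of 9 members in a fit that called 1513 genes. An average over both treatments, added after seeing the data, called Relb and Map3k14, 2 of 9 beside 19.5% of all tested genes. Of 10 fits that left out 1 library, the averaged Relb call held in 5 and the Map3k14 call in 3.

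The 10 sequenced cultures were mouse embryonic fibroblasts, the collagen-making cells of embryonic connective tissue, that had been immortalised. They were labelled Slfn2 WT or Slfn2 KO, for the Schlafen family gene Slfn2, and were left untreated or given mouse IFN-β at 5000 IU/ml for 6 h. Each WT-labelled group had 3 libraries and each KO-labelled group had 2. The replicates were plated in duplicate or triplicate, per the labels, and nothing says that they came from separate embryos or clones, so p-values measure only the spread between these cultures, which may be technical. The series was made to ask whether Slfn2 shapes interferon responses by way of NF-κB.

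The libraries held 13565815 to 16329729 reads, and 13658 to 14311 genes had a read. Slfn2 itself stood at 18.7, 17.4 and 15.5 normalised reads (read counts divided by a size factor per library) in the untreated WT-labelled libraries and at 46.1 and 34.9 in the untreated libraries labelled KO, so the label was not borne out by lower Slfn2 there. With IFN-β it stood at 527, 449 and 573 in the WT-labelled libraries and at 75.0 and 171 in those labelled KO. The deleted part of the gene is not given in the sources used here, and the libraries are therefore called WT-labelled and KO-labelled throughout. All 12 fibroblast markers had reads in every group, with sums of 240329 to 359208 normalised reads in WT-labelled and 354933 to 511196 in KO-labelled libraries. Of 11 leukocyte markers 5 or 6 were at 0 in each group, Ptprc did not exceed 1.88, and their sums were 260 to 419 in WT-labelled and 146 to 205 in KO-labelled libraries. Epithelial markers summed to at most 5.24 and endothelial markers to at most 24.1. Between the labelled genotypes the leukocyte sums were thus lower in KO-labelled libraries and the fibroblast sums mostly higher, while epithelial and endothelial sums overlapped. Their part in the genotype differences given below was not tested. In bulk RNA fewer cells of a type and less RNA per cell cannot be told apart.

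NF-κB is a family of dimers built from the 5 subunits and held in the cytoplasm by IκB proteins. In the canonical arm IKKβ, with NEMO as the scaffold, phosphorylates IκBα, which is degraded and releases dimers such as RelA with p50, the product of Nfkb1. In the non-canonical arm NIK accumulates, activates IKKα and drives the processing of p100, the product of Nfkb2, to p52, the partner of RelB. The subunits are switched on mainly through their proteins, and the transcript levels measured here do not read that activity.

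Of the 9 genes, 3 lie on chromosome 19 of GRCm38 (mm10), with whole-gene spans of chr19:5637483-5648130 for Rela on the plus strand, chr19:44073335-44107480 for Chuk on the minus strand and chr19:46304320-46312385 for Nfkb2 on the plus strand. Rel spans chr11:23736847-23770970 and Map3k14 spans chr11:103219762-103267472, both on the minus strand. The others are Relb at chr7:19606217-19629438, Nfkb1 at chr3:135584655-135691547 and Ikbkb at chr8:22659212-22706589, all on the minus strand, and Ikbkg at chrX:74393290-74453854 on the plus strand. Nfkb2 shares 6.52% of its exon bases with Psd on the opposite strand, and Ikbkg shares 5.15% with G6pdx on the opposite strand. The libraries were strand-specific, but the strand setting used in counting is not given in the sources used here, so some reads of these pairs may not be told apart.

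NF-κB is known to act on genes of its own subunits, so promoter sequence was read for the members with an entry in the RefSeq promoter table (GRCm38.p6, 250 bases before to 50 after each start), which held 6 of the 9: Rela, Rel, Nfkb2, Chuk, Ikbkg and Map3k14. The κB consensus, searched on both strands, was found in windows of Nfkb2 and Rel and in none of the windows of Rela, Chuk, Ikbkg and Map3k14. The same motif was in 8.46% of all 32851 windows. The 120 bases upstream of an Nfkb2 start (chr19:46304617-46304736, plus strand) and of the Rel start (chr11:23770970-23771089, minus strand) are shown 5′ to 3′ because they hold matches, with the bases covered by the consensus in capitals. The start shown for Nfkb2 is the first of its 3 starts in the table, and the windows of the other 2 also held matches, which are not shown.
Nfkb2: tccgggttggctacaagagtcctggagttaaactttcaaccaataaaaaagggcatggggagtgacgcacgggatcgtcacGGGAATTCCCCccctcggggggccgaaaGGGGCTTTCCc
Rel: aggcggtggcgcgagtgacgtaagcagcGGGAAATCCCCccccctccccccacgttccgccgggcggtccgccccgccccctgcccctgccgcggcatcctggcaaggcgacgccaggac
The matches in the stretch shown for Nfkb2 include a pair that overlap, as do those for Rel. The STAT-type palindrome TTCNNNGAA, which reads the same on both strands, was in windows of Chuk and Nfkb2 and in 8.30% of all windows. These matches describe the sequence and say nothing of whether a factor was bound.

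Rel was the least abundant of the 9 transcripts per length, and per kb of merged exons Rela and Nfkb2 were the most abundant. On that scale Rela stood at 476 ± 57.1 normalised reads per kb (SD over all 10 libraries) and Nfkb2 at 430 ± 47.7, and in every library these were ranks 1 and 2 in either order. Chuk followed at 261 ± 61.3 and Nfkb1 at 180 ± 39.6, then Relb at 116 ± 40.5, Ikbkg at 104 ± 14.7, Map3k14 at 65.7 ± 17.3, Ikbkb at 57.4 ± 8.09 and Rel at 13.8 ± 3.87. Rel was last in all 10 libraries. Neighbours from Relb to Ikbkg and from Map3k14 to Ikbkb did not differ beyond their spread, and Rela and Nfkb2 overlapped as well. Apart from Rel, this order depends on which exons count as the gene's length, at its top as well. Per kb of the longest principal transcript, an alternative chosen after seeing the data, Nfkb1 stood at 528 ± 116, beside 627 ± 69.7 for Nfkb2 and 539 ± 64.6 for Rela, and ranked from 1 to 5, while Rela and Nfkb2 ranked from 1 to 3. Ikbkb stood at 306 ± 43.1 on that scale. Nfkb1 and Ikbkb moved up because their merged exons span 12.061 and 19.078 kb against 4.117 and 3.58 kb for that transcript.

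**Figure D1:**
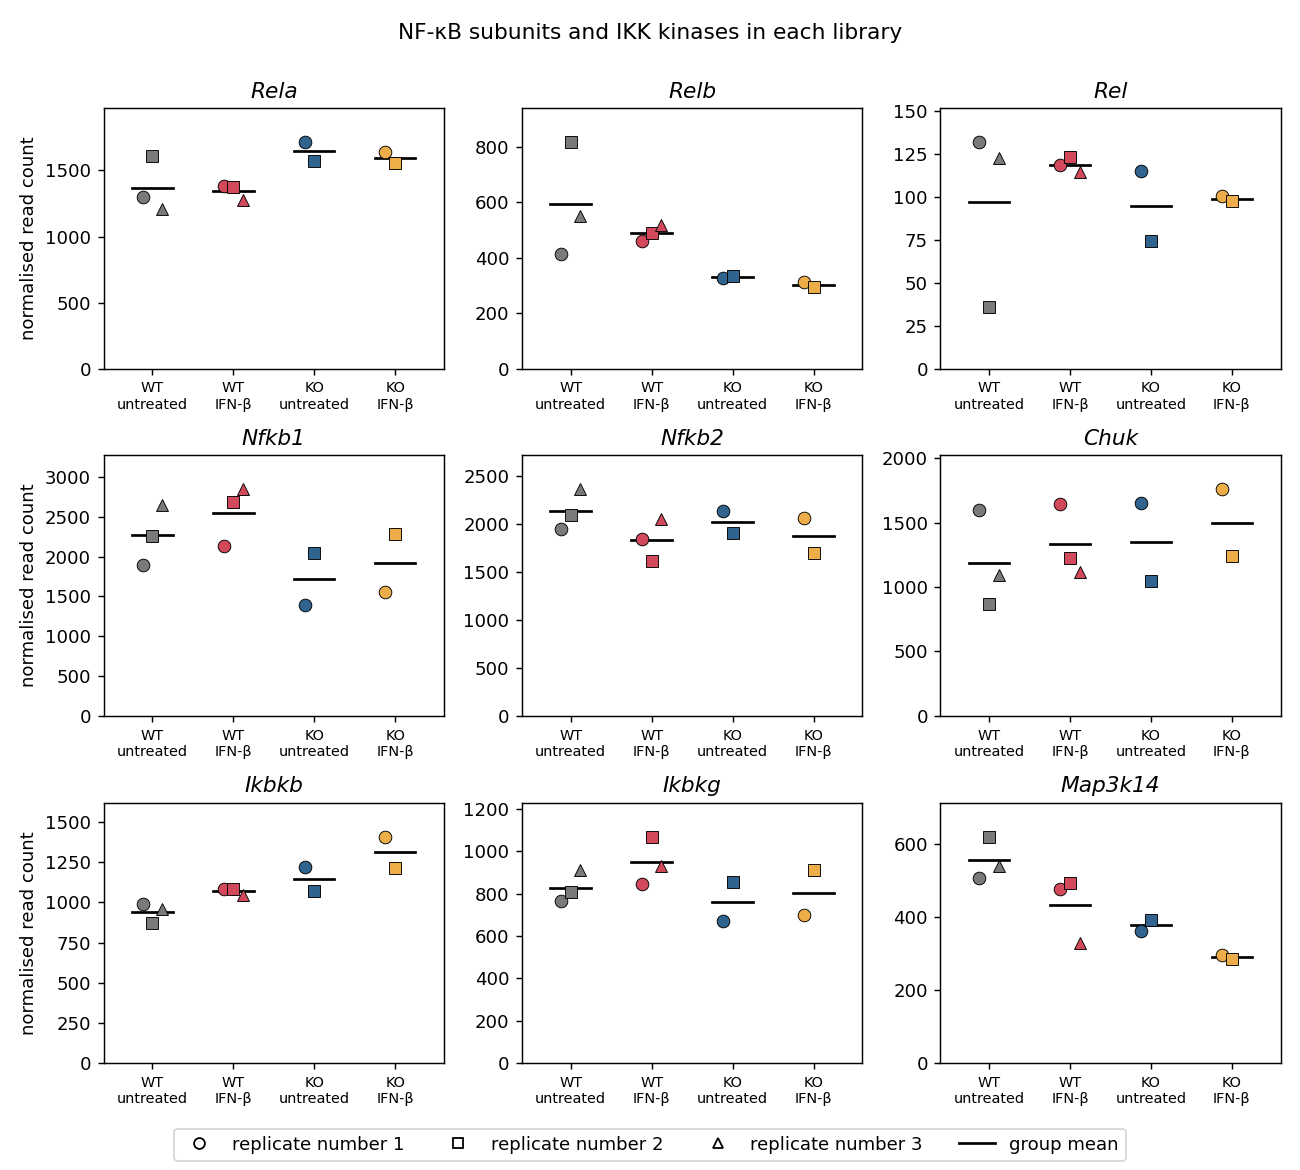
Normalised read count of each of the 9 genes (vertical axes, from 0, not scaled by length) in the 10 libraries, by labelled genotype and treatment; symbols give the replicate number and bars the group mean. Within each treatment Relb and Map3k14 are lower in the KO-labelled libraries than in any WT-labelled one. The groups of 31.6% (untreated) and 40.5% (IFN-β) of all tested genes do not overlap either. Across treatments Map3k14 in the WT-labelled library with IFN-β numbered 3 (329) lies below both untreated KO-labelled ones (363 and 392). Chuk and Nfkb1 separate by replicate number within each group.

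Rela encodes the subunit that carries most canonical transcription. Its level was 1296, 1608 and 1205 normalised reads in the untreated WT-labelled libraries and 1384, 1376 and 1279 with IFN-β. It was 1712 and 1573 in the untreated KO-labelled libraries and 1640 and 1553 with IFN-β. The groups overlapped in each comparison except between the labelled genotypes with IFN-β, where both KO-labelled libraries lay above all 3 WT-labelled ones. That difference was 1.19-fold without the block (limma adjusted p = 0.413) and 1.14-fold with the replicate number as a block (95% interval 0.936 to 1.38, limma adjusted p = 0.301), and did not pass the test. The IFN-β difference was near none, at 0.990-fold in WT-labelled (0.800 to 1.22) and 0.972-fold in KO-labelled cells (0.749 to 1.26).

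Relb encodes the subunit that pairs with p52 in the non-canonical arm, and it had the widest genotype difference of the 9. Its level was 413, 815 and 551 normalised reads in the untreated WT-labelled libraries and 461, 488 and 516 with IFN-β. It was 327 and 333 in the untreated KO-labelled libraries and 312 and 295 with IFN-β. All 4 KO-labelled libraries thus lay below all 6 WT-labelled ones, and the untreated WT-labelled library numbered 2 stood well above the others of its group. Untreated, the log2 difference was −0.79 ± 0.26 (SE), a level of 0.579-fold (95% interval 0.388 to 0.865), which missed the threshold over all genes (limma adjusted p = 0.113). With IFN-β it was −0.68 ± 0.26 (limma adjusted p = 0.165).

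With the replicate number as a block, Relb fell in the untreated KO-labelled libraries by 0.78 ± 0.23 on the log2 scale (limma adjusted p = 0.038), while with IFN-β the difference of −0.68 did not pass (limma adjusted p = 0.063). The untreated call was lost in 7 of the 10 fits that left out 1 library, with limma adjusted p up to 0.240. The call held without the WT-labelled untreated library numbered 1 or without either KO-labelled library with IFN-β. Without the untreated WT-labelled library numbered 2 the difference was −0.42 (limma adjusted p = 0.055), and the one with IFN-β then passed (−0.60, limma adjusted p = 0.0080). The untreated call was lost without any of the other 7 libraries, which are the untreated WT-labelled libraries numbered 2 and 3, all 3 WT-labelled libraries with IFN-β and both untreated KO-labelled ones. Between libraries of the same number, Relb was lower in the KO-labelled one in 4 of 4 pairs, at ratios of 0.408 to 0.792. Pair counts here and below were made for the members only. Without the share over all genes, they describe direction and are no test. IFN-β gave no call for Relb in either labelled genotype, with levels of 0.856-fold (0.598 to 1.22) and 0.920-fold (0.593 to 1.43).

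Rel encodes c-Rel, the subunit best known from lymphocytes, and it was the least abundant member. Its level was 132, 35.8 and 123 normalised reads in the untreated WT-labelled libraries and 118, 123 and 115 with IFN-β. It was 115 and 74.4 in the untreated KO-labelled libraries and 100.3 and 97.5 with IFN-β. The low value of 35.8 belongs to the untreated WT-labelled library numbered 2, the same library in which Relb was highest. In treated cells both KO-labelled libraries lay below all 3 WT-labelled ones, at a fitted level of 0.835-fold (95% interval 0.376 to 1.86, limma adjusted p = 0.840). The IFN-β interval in WT-labelled cells, 0.692 to 2.89 around 1.41-fold, leaves a wide range of responses undetermined.

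Nfkb1, which encodes p105 and its product p50, stood at 1896, 2261 and 2653 normalised reads in the untreated WT-labelled libraries and at 2133, 2679 and 2843 with IFN-β. In the KO-labelled libraries it stood at 1389 and 2042 untreated and at 1550 and 2288 with IFN-β. The groups overlapped in all 4 comparisons, and within each group the library numbered 1 was the lowest. Nfkb1 was lower in the KO-labelled library in 4 of 4 same-number pairs, at ratios of 0.727 to 0.903, and higher with IFN-β in 5 of 5, at ratios of 1.07 to 1.19. The untreated genotype difference was 0.749-fold (95% interval 0.510 to 1.10, limma adjusted p = 0.387) and, with the block, 0.803-fold (0.677 to 0.954, limma adjusted p = 0.063).

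Nfkb2, which encodes p100 and its product p52, stood at 1942, 2093 and 2359 normalised reads in the untreated WT-labelled libraries and at 1847, 1609 and 2053 with IFN-β. It stood at 2134 and 1907 in the untreated KO-labelled libraries and at 2056 and 1700 with IFN-β. The groups overlapped in every comparison. Between the labelled genotypes the untreated level was 0.949-fold (95% interval 0.737 to 1.22), and with the block 1.00-fold (0.844 to 1.19). With IFN-β Nfkb2 was lower in 5 of 5 same-number pairs, at ratios of 0.768 to 0.964, but the difference in WT-labelled cells of −0.22 on the log2 scale passed neither without nor with the block (limma adjusted p = 1.00 and 0.317).

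The make-up of the subunit transcripts follows from these levels. Relb made up 11.9% ± 2.97 (SD, n = 3) of the summed subunit level per kb in untreated WT-labelled libraries and 10.5% ± 0.314 (n = 3) with IFN-β. In the KO-labelled libraries its share was 6.99% ± 0.263 (n = 2) untreated and 6.62% ± 0.055 (n = 2) with IFN-β. Rela made up 35.3% ± 4.13 and 36.8% ± 3.03 in the WT-labelled groups, and 44.0% ± 1.49 and 44.0% ± 0.393 in the KO-labelled groups. For both genes no KO-labelled library overlapped a WT-labelled one, and the shares of one sum are tied to each other. Nfkb2 held 33.5% to 36.9% and Rel 1.04% to 1.34% as group means. Nfkb1 held 14.9%, 17.7%, 11.7% and 13.5% in the order WT-labelled untreated and with IFN-β, then KO-labelled untreated and with IFN-β. With the length of the principal transcript the shares of Relb were 13.1%, 11.4%, 8.17% and 7.62% in the same order of groups, again with every KO-labelled library below every WT-labelled one. On that length Rela made up 25.1%, 25.7%, 33.1% and 32.6%, and Nfkb1 27.3%, 31.9%, 22.8% and 25.8%. The sizes of the shares thus depend on the length used.

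**Figure D2:**
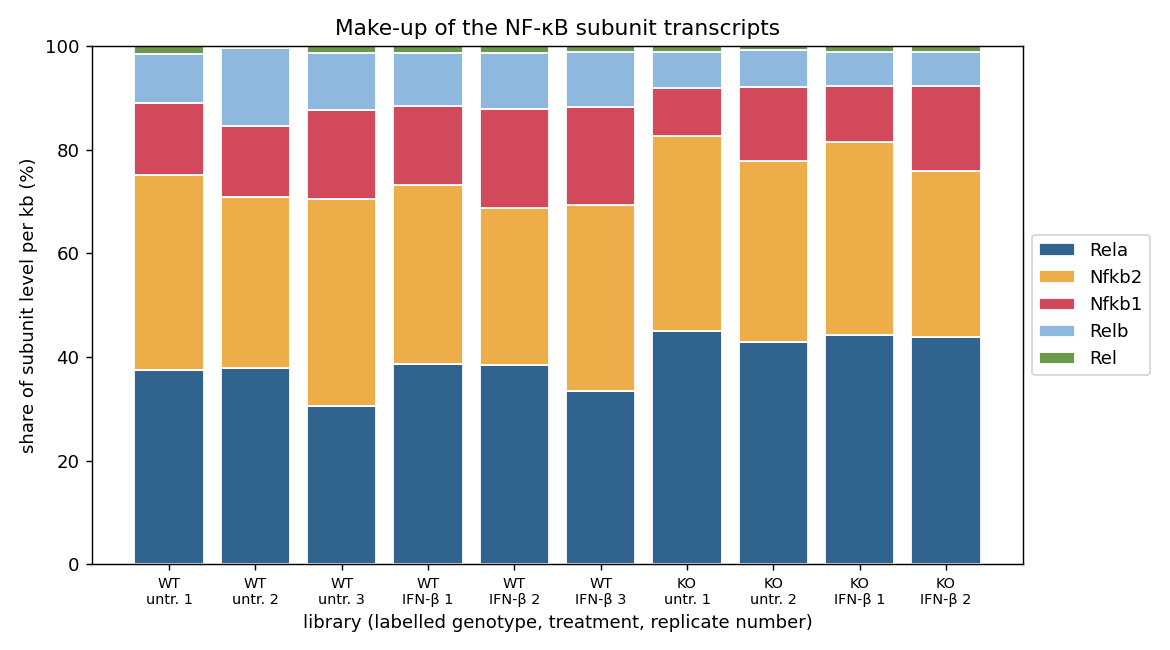
Share of each subunit gene in the summed normalised reads per kb of merged exons of the 5 subunit genes (vertical axis, percent, from 0), one bar per library. Relb takes 9.43% to 15.2% of the bar in the WT-labelled libraries and 6.58% to 7.18% in the KO-labelled ones, and Rela 30.5% to 38.7% against 42.9% to 45.0%.

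Map3k14 encodes NIK, the kinase at the head of the non-canonical arm, whose protein is held low by degradation in resting cells. Its level was 506, 621 and 540 normalised reads in the untreated WT-labelled libraries and 477, 493 and 329 with IFN-β. It was 363 and 392 in the untreated KO-labelled libraries and 295 and 286 with IFN-β. Neither genotype comparison overlapped, and neither did either IFN-β comparison, so that the lowest group was KO-labelled with IFN-β and the highest was WT-labelled untreated. The log2 difference between the labelled genotypes was −0.55 ± 0.21 (SE) in both treatments, a level of 0.682-fold untreated (95% interval 0.491 to 0.946), and missed the threshold (limma adjusted p = 0.169 untreated and 0.170 with IFN-β).

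With the replicate block Map3k14 fell in the KO-labelled libraries by 0.65 ± 0.16 on the log2 scale in each treatment (limma adjusted p = 0.018 untreated and 0.019 with IFN-β). The untreated call was lost without the untreated KO-labelled library numbered 1 (limma adjusted p = 0.088) or 2 (0.109). The call with IFN-β was lost without the WT-labelled library with IFN-β numbered 1 (0.094) or 2 (0.079), or the KO-labelled one numbered 1 (0.065) or 2 (0.156). Map3k14 was lower in the KO-labelled library in 4 of 4 same-number pairs, at ratios of 0.581 to 0.717, and lower with IFN-β in 5 of 5, at ratios of 0.610 to 0.942. The IFN-β difference of −0.38 in each labelled genotype did not pass with the block either (limma adjusted p = 0.215 in WT-labelled and 0.453 in KO-labelled cells).

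Ikbkb encodes the kinase that marks IκBα for degradation in the canonical arm. Its level was 989, 870.5 and 958 normalised reads in the untreated WT-labelled libraries and 1082, 1084 and 1048 with IFN-β. It was 1222 and 1074 in the untreated KO-labelled libraries and 1411 and 1217 with IFN-β. Libraries labelled KO lay above the WT-labelled ones in both treatments, and the IFN-β libraries above the untreated ones in WT-labelled cells. The genotype difference was 1.22-fold in each treatment (95% interval 0.983 to 1.52 untreated) and did not pass (limma adjusted p = 0.276 untreated, 0.069 with the block). Ikbkb was higher in the KO-labelled library in 4 of 4 same-number pairs, at ratios of 1.12 to 1.30, and higher with IFN-β in 5 of 5, at ratios of 1.09 to 1.24.

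Chuk encodes IKKα, the kinase of p100, and its level followed the replicate number more than the groups. It was 1599, 865 and 1092 normalised reads in the untreated WT-labelled libraries and 1648, 1229 and 1118 with IFN-β. It was 1653 and 1049 in the untreated KO-labelled libraries and 1757 and 1243 with IFN-β. The library numbered 1 was the highest of its group in all 4 groups, and the groups overlapped in every comparison. Chuk was higher with IFN-β in 5 of 5 same-number pairs, at ratios of 1.02 to 1.42. It was higher in the KO-labelled library in 4 of 4, at ratios of 1.01 to 1.21. With the block the untreated genotype difference was 1.09-fold (95% interval 0.885 to 1.34) and the IFN-β difference in WT-labelled cells 1.14-fold (0.959 to 1.37).

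Ikbkg encodes NEMO, the scaffold subunit that binds ubiquitin chains. Its level was 764, 809 and 915 normalised reads in the untreated WT-labelled libraries and 848, 1071 and 931 with IFN-β. It was 669 and 857 in the untreated KO-labelled libraries and 698 and 912 with IFN-β. All comparisons overlapped, and the untreated genotype difference was 0.916-fold (95% interval 0.681 to 1.23). Its IFN-β difference was 1.14-fold in WT-labelled (0.877 to 1.49) and 1.05-fold in KO-labelled cells (0.761 to 1.46). Ikbkg was higher with IFN-β in 5 of 5 same-number pairs, at ratios of 1.02 to 1.32, and lower in the KO-labelled library in 3 of 4.

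The counts over the 9 genes are read against all 12313 tested genes. After IFN-β, 0 of the 9 passed in WT-labelled cells, where 2.21% of all tested genes passed, and 0 in KO-labelled cells, where 1.84% passed (limma, adjusted over all genes). With the block these counts were also 0, against 4.95% and 3.48%. At an unadjusted p under 0.05, 0 members lay in each of these comparisons without the block, beside 748 and 599 of the 12313 genes. With the block 2 did in WT-labelled cells, Nfkb2 and Map3k14, beside 1890 genes, and 0 in KO-labelled cells, beside 1371. Between the labelled genotypes 0 of 9 passed untreated, against 6.23% of all genes, and 0 of 9 with IFN-β, against 6.55%, while Relb and Map3k14 had an unadjusted p under 0.05 in both, beside 2582 and 2580 of the 12313 genes. The IFN-β and genotype comparisons share libraries, so their values are given side by side and not set against each other. With the block 2 of 9 passed untreated, against 26.6%, and 1 of 9 with IFN-β, against 26.0%, and the members' shares were near or under that background. Leaving out the untreated WT-labelled library numbered 2 raised the blocked count with IFN-β to 6 of 9 (Rela, Relb, Nfkb1, Ikbkb, Ikbkg and Map3k14), while 36.4% of all genes passed in that fit. The other 9 such fits gave 0 to 2. DESeq2 without the block called Relb in the untreated genotype comparison (log2 difference −0.84, DESeq2 adjusted p = 0.032), in a fit that called 1513 genes. Limma without the block did so when the untreated WT-labelled library numbered 1 was left out (−1.02, limma adjusted p = 0.037), in a fit that called 647 genes.

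**Figure D3:**
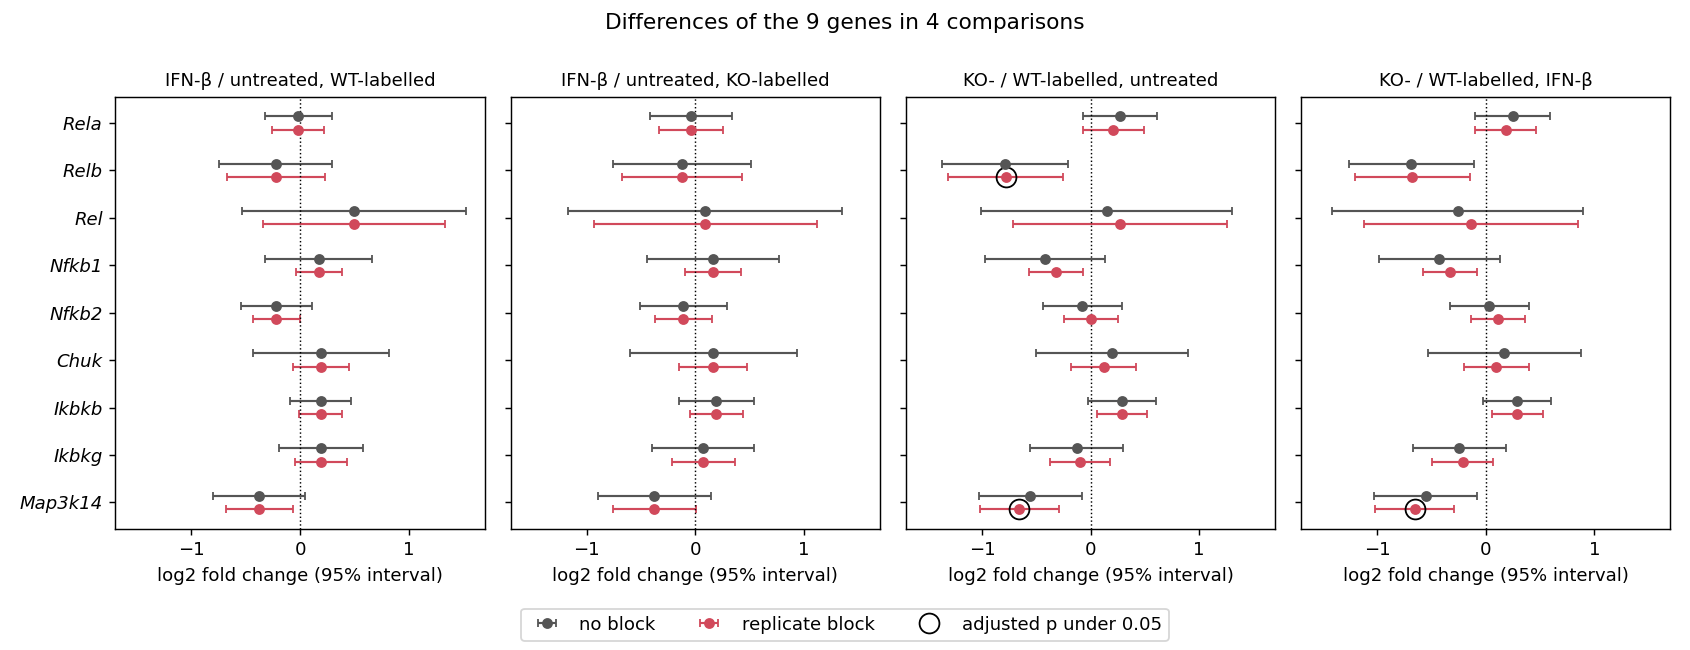
Log2 fold change of each of the 9 genes with its 95% interval (horizontal axes) in 4 comparisons, from limma without the block (grey) and with the replicate number as a block (red); a ring marks an adjusted p under 0.05 over all 12313 genes. The ringed points are Relb in the untreated genotype comparison (−0.78) and Map3k14 in both genotype comparisons (−0.65), each with the block only.

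Members whose groups did not overlap are read beside the same share over all tested genes. After IFN-β 2 of 9 members did not overlap in WT-labelled cells (Ikbkb and Map3k14), beside 11.6% of all genes, and 2 of 9 in KO-labelled cells (Relb and Map3k14), beside 20.4%. Between the labelled genotypes it was 3 of 9 untreated (Relb, Ikbkb and Map3k14), beside 31.6%, and 5 of 9 with IFN-β (Rela, Relb, Rel, Ikbkb and Map3k14), beside 40.5%. The interaction, which asks whether the IFN-β response differs between the labelled genotypes, was passed by 0 of the 9 and by 0 of all genes in limma without and with the block, while DESeq2 called 1 gene. None of the 9 had an unadjusted p under 0.05 for it, against 36 of all genes without the block and 151 with it. For Map3k14 the response of KO-labelled cells relative to WT-labelled cells was 1.00-fold (95% interval 0.629 to 1.59), and for Rela 0.982-fold (0.702 to 1.38). For Rel the interval was far wider, 0.244 to 2.33.

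Averaging the genotype difference over both treatments was added after seeing the data. In that contrast Relb fell by 0.74 ± 0.18 on the log2 scale (limma adjusted p = 0.021) and Map3k14 by 0.55 ± 0.15 (limma adjusted p = 0.030) without the block, 2 of 9 members against 19.5% of all genes. Leaving out 1 library in turn gave 0 to 3 calls, Relb passing in 5 of 10 such fits and Map3k14 in 3 of 10 (limma adjusted p up to 0.068 and 0.089). Relb lost the call without any of the 4 KO-labelled libraries or the WT-labelled one with IFN-β numbered 3. Map3k14 lost it without any of the 4 KO-labelled libraries, the untreated WT-labelled one numbered 3 or the WT-labelled ones with IFN-β numbered 1 and 2. With the block 4 of 9 passed, against 42.5% of all genes. Relb fell (limma adjusted p = 0.010), as did Map3k14 (0.003) and Nfkb1 (0.80-fold, 0.013), while Ikbkb rose (1.22-fold, 0.015). With the block Relb and Map3k14 passed in all 10 fits without 1 library. These calls do not set the 2 genes apart, as a large share of all genes also passed. In the fits without 1 WT-labelled library that share was 34.9% to 46.3%. It was highest without the untreated WT-labelled library numbered 2, where 6 of 9 members passed. Ikbkb and Nfkb1 each passed in 7 of 10, and both lost the call without the WT-labelled library with IFN-β numbered 1, the untreated KO-labelled library numbered 1 or the KO-labelled one with IFN-β numbered 1 (limma adjusted p up to 0.074 for Ikbkb and 0.067 for Nfkb1). The corresponding average of the IFN-β difference had 0 of 9 members, against 3.28% of all genes and 8.16% with the block. Map3k14 came nearest there, at 0.770-fold (limma adjusted p = 0.075 with the block, 0.039 without the untreated WT-labelled library numbered 1).

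The replicate number itself set apart some of these genes. Between libraries numbered 2 and 1, after the groups were accounted for, Nfkb1 was 1.34-fold higher (limma adjusted p = 0.0033), Ikbkg 1.22-fold higher (limma adjusted p = 0.027) and Chuk 0.652-fold (limma adjusted p = 0.0015). These were 3 of the 9 members, beside 48.6% of all tested genes. The Chuk difference between replicate numbers, −0.62 on the log2 scale, was larger than any of its group differences.

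The rest of the pathway was read from 7 lists holding 98 genes, of which 97 were matched by symbol and 90 were tested. Between the untreated labelled genotypes the median log2 difference was −0.07 over the 9 members, which lay on both sides of 0 with Relb lowest at −0.79, and 0.00 over all tested genes. Over 30 tested NF-κB target genes of 35 it was −2.47, with 13 lower and 0 higher, beside 3.23% of all genes lower (21 lower with the block, beside 13.1%). With IFN-β 10 targets were lower and 0 higher, beside 3.64% of all genes lower (22 lower with the block, beside 13.3%), with a median of −1.96 against −0.24 over the members. The target list was drawn up with earlier results of these data known and is no independent evidence of its direction.

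Among the targets Cxcl5, a neutrophil chemokine, fell from 2982 ± 1280 normalised reads (n = 3) to 3.87 ± 2.51 (n = 2) in the untreated libraries labelled KO, a log2 difference of −9.24 ± 0.53 (limma adjusted p = 2.7e-05). Saa3, an acute-phase protein gene, held 2582 ± 1489 normalised reads in the untreated WT-labelled libraries and 2 reads in the KO-labelled pair, and Mmp3, a matrix metalloproteinase gene, held 273 ± 158 against 0 reads. Both passed the test in either treatment. Leukocyte markers had lower sums in the same KO-labelled libraries, as given above, and their part in these differences was not tested.

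Among genes that hold the pathway in check or connect it to receptors, some passed in either direction between the labelled genotypes. The counts of each list are to be read beside the share of all tested genes that passed. Without the block that share was 6.23% untreated and 6.55% with IFN-β, and with the block 26.6% and 26.0%. Of the 6 IκB genes, Nfkbie, which encodes IκBε, fell from 266 ± 121 (n = 3) to 34.0 ± 5.15 (n = 2) normalised reads in untreated cells (log2 difference −2.83 ± 0.47, limma adjusted p = 0.0083). The median of the 6 was −0.98. With the block 5 of the 6 were lower untreated and 1, Nfkbid, was higher. Of 26 adaptors, ubiquitin ligases and upstream kinases, Birc3 and Birc2, which encode the ubiquitin ligases cIAP2 and cIAP1 that mark NIK for degradation with TRAF2 and TRAF3, fell, with log2 differences of −5.15 and −2.42 untreated (limma adjusted p = 0.00026 and 0.0029). Birc3 stood at 1558 ± 399 normalised reads in untreated WT-labelled libraries (n = 3) and at 47.4 ± 31.5 in the KO-labelled ones (n = 2). The deubiquitinase gene Cyld rose by 1.22 ± 0.17 (limma adjusted p = 0.0039), the only one of 7 tested deubiquitinases and brakes to pass. Il1rap, the accessory chain of the interleukin-1 receptor, was the 1 of 9 tested receptor genes to pass untreated and fell by 1.41 (limma adjusted p = 0.046). With IFN-β 0 of the 9 receptor genes passed without the block, while 2 were higher and 1 lower with it. Among 5 IKK-related kinases and their adaptors Tbkbp1, an adaptor of TBK1, had a log2 difference of −2.23 with IFN-β (limma adjusted p = 0.042) and of −1.96 untreated (limma adjusted p = 0.065). With the block it fell in both (limma adjusted p = 0.0021 with IFN-β and 0.0038 untreated). Of the 7 genes for IκB degradation and p100 or p105 processing, 0 passed in either genotype comparison without the block. With the block the untreated counts were 4 higher and 4 lower among the adaptors, ligases and upstream kinases, 2 higher and 1 lower among the receptors, 2 lower among the IKK-related kinases and 1 higher among the degradation and processing genes, while 26.6% of all genes passed in either direction.

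**Figure D4:**
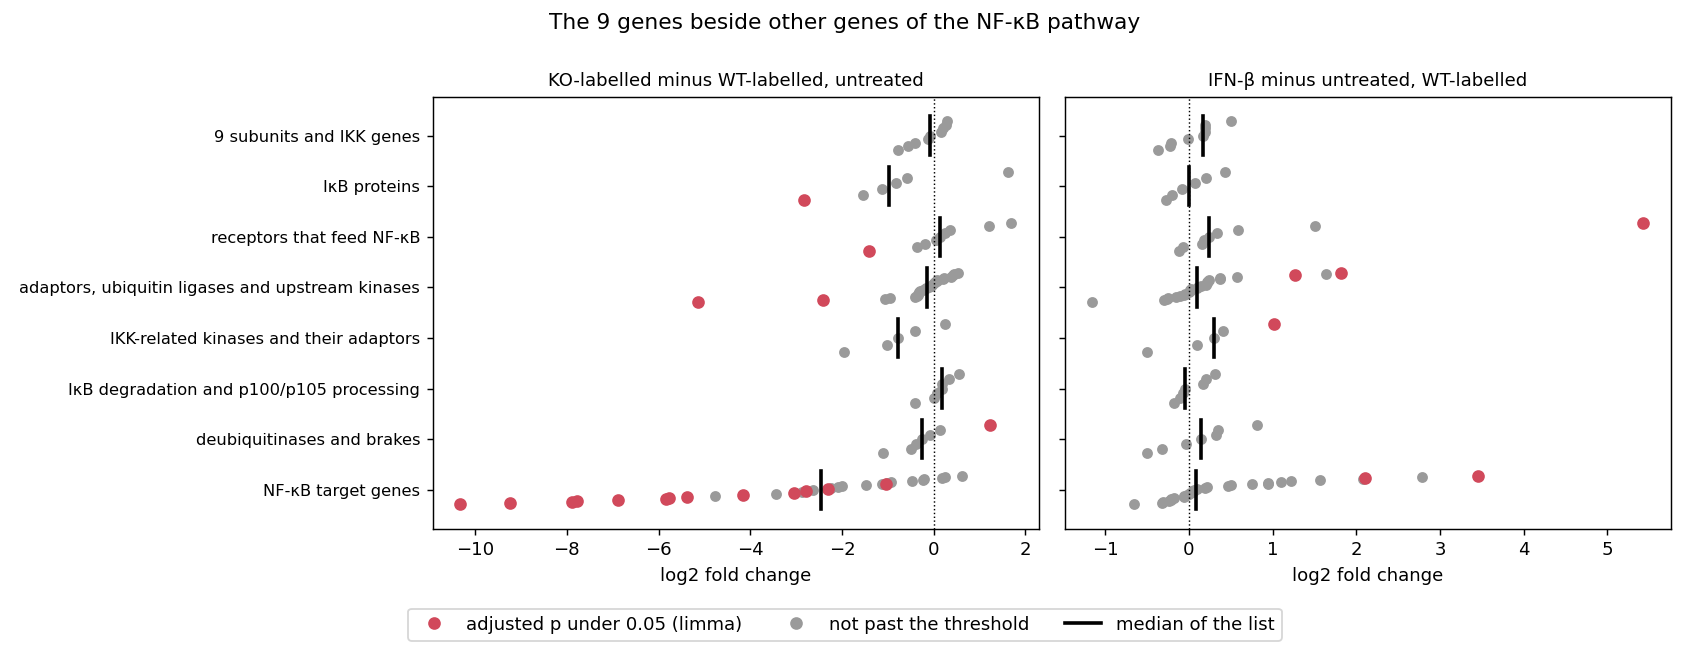
Log2 fold change (horizontal axes) of the 9 genes and of each tested gene of 7 lists, for untreated KO-labelled minus WT-labelled cells (left) and IFN-β minus untreated in WT-labelled cells (right); red points have a limma adjusted p under 0.05 without the block and bars are list medians. The 9 genes lie between −0.79 and 0.29 on the left, where the target genes have a median of −2.47, and between −0.38 and 0.50 on the right.

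IFN-β raised pathway genes outside the 9. Of the 90 tested list genes 6 rose and 0 fell in WT-labelled cells, beside 2.21% of all genes, and 7 rose and 0 fell in KO-labelled cells, beside 1.84% (16 and 12 rose with the block). Tlr3, a receptor for double-stranded RNA, rose from 45.6 ± 27.4 to 1764 ± 184 normalised reads in WT-labelled cells (n = 3 each), a log2 rise of 5.43 ± 0.39, and by 5.01 ± 0.48 in KO-labelled cells (limma adjusted p = 6.5e-05 and 0.00046). Myd88, the adaptor of most Toll-like and interleukin-1 receptors, rose by 1.82 and 2.00. Rnf31, a subunit of the linear ubiquitin ligase, rose by 1.27 and 1.30, and Azi2, an adaptor of TBK1, by 1.02 and 1.04 in the same order. Among the targets Cfb, a complement gene, and Tapbp, which loads peptides on MHC class I, rose in WT-labelled cells by 3.46 and 2.10 on the log2 scale. In KO-labelled cells the cytokine gene Il6 rose by 6.29, and the chemokine genes Ccl7 and Ccl2 by 2.74 and 2.48. The Il6 rise started from 5 reads summed over the untreated KO-labelled libraries, near the floor. Mean normalised reads of these genes rose in WT-labelled cells as well, from 145 to 609 (Il6), 2876 to 7770 (Ccl7) and 5778 to 12326 (Ccl2). With IFN-β the KO-labelled means were lower, at 243, 2612 and 1627 in the same order. The difference between the labelled genotypes in these responses passed for none of the lists' genes.

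Across the 10 libraries, the genes whose centred log2 levels lay nearest to those of Map3k14 among 9930 candidates were Thap11, Ttl and Comtd1, at mean absolute differences of 0.109, 0.115 and 0.118. Those nearest to Relb were Cacnb3, Naa10 and Pfkl, at 0.090, 0.096 and 0.098. Map3k14 itself ranged over 1.11 and Relb over 1.46 on the log2 scale. These are given for the members that passed with the block within a treatment, and describe likeness over libraries that share groups and replicate numbers.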

How the data were processed

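RNA sequencing values were analysed for all 10 libraries. Per the submitters' processing notes, cutadapt 1.13, STAR 2.5.2a, HTSeq and DESeq2 were used with the mm10 build. The annotation, the strand setting and filters are not given in the sources used here. The deposited values are a signal per gene, which the authors obtained from read counts scaled by a size factor for each library. Dividing each value by the smallest step of its library gave whole reads within a tolerance of 0.001 for 100% of values. A floor of 3 reads equals 2.73 to 3.29 normalised reads.

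Log2 values (normalised reads plus a pseudocount of 1) were fitted with limma-trend (limma 3.58.1 under R 4.3.3), using 4 group means and all 10 libraries. Genes first had to pass edgeR's filterByExpr (version 4.0.16) at a minimum count of 10. Tests were two-sided, adjusted by Benjamini-Hochberg over 12313 genes and called at an adjusted p under 0.05. Intervals on folds are 95% intervals of the fit, and the pseudocount understates the change of low genes. Alternatives were edgeR's quasi-likelihood test, DESeq2 1.42.0, TMM scaling, pseudocounts of 0.5 and 5, no low-count filter, a replicate block and leaving out each library. The test was run on simulated counts with known changes before use. Those counts held no replicate-number effect, so the run cannot show how the fits behave where there is one.

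The replicate numbers pair the samples. Across genes, same-number libraries of different groups deviated together (r of 0.48 to 0.87, each above the limit of 0.1), against at most 0.32 for different numbers. Each group was centred on its own mean, so the 2 libraries of a KO-labelled group are mirror images. Their different-number values are thus no independent contrast. Between the WT-labelled groups r was 0.61 to 0.79 for same numbers and at most 0.0095 for different ones, which centring also lowers. The labels do not say what the numbers stand for, and the pairing is taken from the data alone. The blocked value stands beside a result where it changes the call.

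The members, the pathway lists and the averaged contrasts were chosen with earlier results of these data known. Named genes are the 9 members, Slfn2 and, per list and comparison, up to 3 passing genes with the largest difference. Gene positions and lengths come from the GENCODE M21 annotation of GRCm38 and promoters from RefSeq.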

Additional observations from a re-analysis of the deposited data

How the results depend on the processing

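No member was called in either IFN-β comparison or in the interaction under any alternative without the block. Of all genes, DESeq2 called 410 after IFN-β in WT-labelled cells, 1513 between the untreated labelled genotypes, 1504 between those with IFN-β and 1 in the interaction. With the replicate block 609 and 429 genes were called after IFN-β in WT-labelled and KO-labelled cells, and 3275 untreated and 3203 with IFN-β between the labelled genotypes. Of the 9 members 2 and 1 were called in the last 2 of these, and DESeq2 called 1 untreated. The block changed no other call of a member in the planned comparisons. With the block, edgeR, DESeq2 and TMM scaling each called 2 members untreated and 4 in the average over treatments, and 1, 2 and 2 with IFN-β. The share of all genes called is not given for these fits, so the counts do not set the members apart. In limma with the block it was 26.6% untreated, 42.5% in the average and 26.0% with IFN-β.

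Leaving out 1 library gave 134 to 218 genes after IFN-β in KO-labelled cells, 340 to 694 between the untreated labelled genotypes, with 0 to 1 members, and 286 to 849 between those with IFN-β. The lowest counts came without KO-labelled library 2 with IFN-β (134 and 286) and without untreated KO-labelled library 2 (340).

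Directions changed only for differences far from the threshold. Between the untreated labelled genotypes the log2 difference of Rel was −0.048 in edgeR and −0.023 in DESeq2, and that of Nfkb2 was 0.0048 with the block. Without 1 library the log2 differences after IFN-β in WT-labelled cells ran from −0.10 to 0.11 for Rela, −0.46 to 0.032 for Relb, −0.10 to 0.82 for Rel and −0.0092 to 0.43 for Chuk. In KO-labelled cells they ran from −0.10 to 0.020 for Rela, −0.22 to 0.41 for Rel, −0.12 to 0.44 for Nfkb1, −0.25 to 0.028 for Nfkb2, −0.16 to 0.49 for Chuk and −0.12 to 0.27 for Ikbkg. Between the untreated labelled genotypes they ran from −0.45 to 0.47 for Rel, −0.16 to 0.0060 for Nfkb2, −0.13 to 0.53 for Chuk and −0.31 to 0.052 for Ikbkg, and with IFN-β from −0.10 to 0.17 for Nfkb2 and −0.079 to 0.42 for Chuk. Rela, Relb, Nfkb1, Ikbkb and Map3k14 kept their direction between the labelled genotypes in every such fit in both treatments. Rel and Ikbkg did so with IFN-β only. The cause of these shifts was not tested.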
